A study of Schizosaccharomyces pombe with 12 samples.

Results

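The comparison set fission yeast (Schizosaccharomyces pombe) strains labelled ubp16 and ubp8 side by side after both had met hydrogen peroxide. Its members are the 2 ubp16 libraries and the 2 ubp8 libraries from cultures given 1 mM H2O2 for 30 min, which are 4 of the 12 RNA-seq libraries of the series, and every gene of the count table was considered. The other 8 libraries are the same 2 mutants without peroxide and the wild-type strain 972 with and without it, at 2 libraries per group. All strains grew in the rich medium YE5S at 30 °C to an optical density of 0.5, and polyadenylated RNA was sequenced from a strand-specific kit. The study's design text calls both mutants deletion strains, and each is a single strain whose marker, mating type and exact deletion the labels do not give.

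Ubp8 and Ubp16 are both ubiquitin-specific proteases, which cut ubiquitin off proteins. Ubp8 sits in the deubiquitinating module of SAGA, a coactivator that also acetylates histones, and in yeasts it removes the single ubiquitin that the Rhp6 and Brl1-Brl2 enzymes attach to histone H2B, a mark that accompanies transcription. Hydrogen peroxide is answered in fission yeast by a MAP kinase pathway, in which Sty1 acts through the factor Atf1 on the core stress genes. It is also answered by the factor Pap1, which becomes oxidised and then turns on antioxidant genes. The study's title asks about H2B ubiquitination at stress genes, and the comparison here asks how the RNA of one protease mutant differs from that of the other under the same oxidant.

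Counts per library ranged from 9904056 to 14054746 over the 12 libraries, and 8166 of the 12683 genes listed had enough counts to be tested. Levels are given below as CPM, counts scaled to library size with the trimmed mean of M-values, and a count of 3 corresponded to 0.276 and 0.300 CPM in the treated ubp16 libraries and 0.220 and 0.274 CPM in the treated ubp8 libraries. Differences are log2 values, ubp16 minus ubp8, each with its standard error, and a gene is called higher or lower where edgeR's quasi-likelihood test gave a Benjamini-Hochberg adjusted p under 0.05. The labels do not say that the 2 libraries of a group come from separate cultures, so the p-values measure the spread between these libraries, which may be technical.

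The mutated genes were read first. The RNA of ubp8 was at 36.8 and 39.6 CPM in ubp16, against 10.6 and 9.24 CPM in ubp8, and treated WT had 29.9 and 37.5 CPM. Both ubp8 libraries were below all the others, and the difference was 1.94 ± 0.15 (adjusted p = 5.7e-08). The RNA of ubp16 was at 9.38 and 12.99 CPM in ubp16, against 19.3 and 20.8 CPM in ubp8, and treated WT had 20.5 and 25.6 CPM. Here the ubp16 libraries were the lowest (log2 difference -0.84 ± 0.17, adjusted p = 0.00092), and without peroxide the levels were 22.2 and 24.9 CPM in ubp16, against 31.9 and 32.5 CPM in ubp8, with 46.7 and 54.3 CPM in WT. That untreated difference was called, but not without ubp8 untreated library 1 or 2 or ubp16 untreated library 1. Reads over neither gene fell to 0 in its own mutant, and the files do not say which part of either gene was removed. The catalase gene ctt1, a standard reporter of the peroxide response, stood at 12377 and 12558 CPM in ubp16, against 6463 and 5494 CPM in ubp8, while treated WT had 2517 and 3175 CPM. Catalase RNA was thus higher in ubp16 (log2 difference 1.06 ± 0.23, adjusted p = 0.0013), with no overlap between the libraries. The strains were apart in ctt1 before peroxide as well. It had 641 and 1212.5 CPM in ubp16, against 229 and 261.5 CPM in ubp8, a log2 difference of 1.92 ± 0.23. The change of the difference with peroxide, -0.86 ± 0.32, was not called.

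After peroxide 1824 genes were higher in ubp16 than in ubp8 and 1736 were lower, which are 22.3% and 21.3% of the 8166 tested. At a difference of 2-fold or more the calls were 446 higher (5.46%) and 805 lower (9.86%). Among the 4954 coding genes the order was the reverse, with 256 higher and 137 lower by as much, so most of these lower calls were not of coding genes. Scaling by library totals moved the median of all genes to -0.14, against -0.03 in the analysis as reported, and the calls to 1320 higher and 2196 lower, so that 37.5% of calls were higher and not 51.2%. Leaving out ubp16 library 1 left 1125 genes lower. In the same strains without peroxide 2241 genes were higher in ubp16 (27.4%) and 1476 lower (18.1%), which makes 60.3% of calls higher, or 37.2% with library totals. That untreated lower count was 898 without ubp8 untreated library 2.

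Much of what separated the treated strains separated them untreated as well. Of the 1824 genes higher after peroxide 1075 were also higher without it, which is 58.9% of the treated calls and 48.0% of the untreated ones. Of the 1736 lower genes 712 were also lower without peroxide, 41.0% of the treated and 48.2% of the untreated calls. Opposite calls were made for 60 genes higher after peroxide and for 117 genes lower after it. Across genes the 2 log2 differences had a Pearson r of 0.577, a description only, since genes are not independent replicates.

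**Figure D1:**
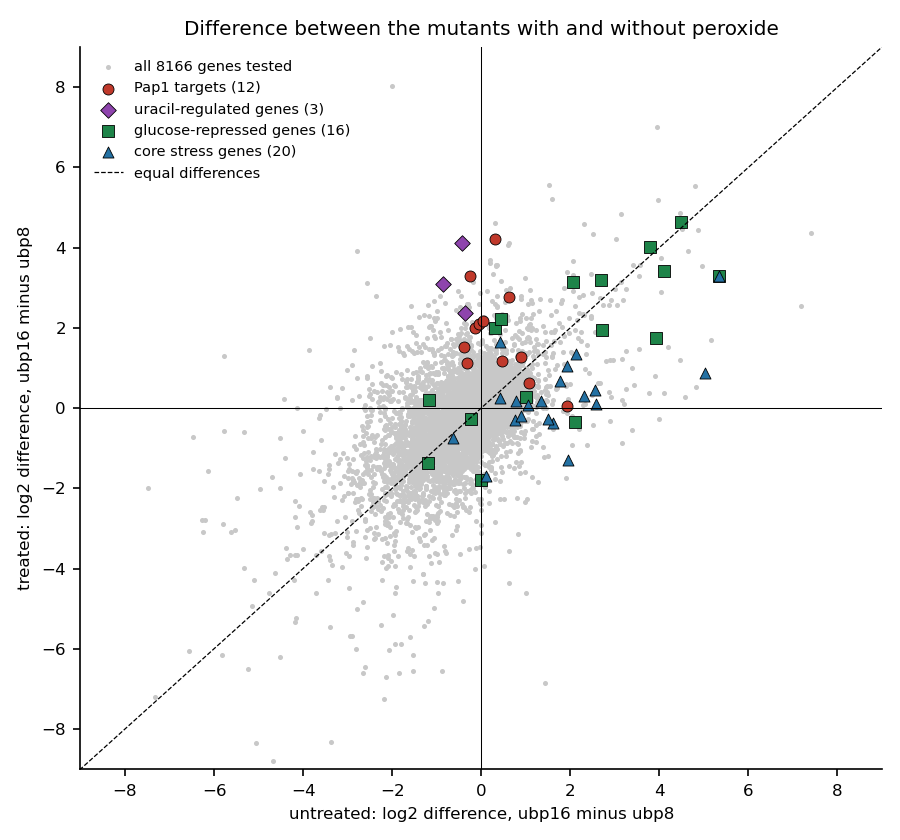
Log2 difference between ubp16 and ubp8 without peroxide (x axis) and after 1 mM H2O2 for 30 min (y axis), 1 point per gene tested, with members of 4 gene groups coloured and the dashed line marking equal differences. Pap1 targets lie mostly above the line and core stress genes mostly below it.

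The gene groups that follow are described by their counts of calls and their median beside the same values for all genes, whose median log2 difference was -0.03 after peroxide and 0.03 without it. All groups below but the non-coding RNAs are of coding genes, of which 31.3% were higher and 18.2% lower after peroxide, and 43.3% higher and 5.79% lower without it. Where a count is given without 1 library, its group held a single library, whose spread was taken to be that of the other groups. With 2 libraries per group, libraries without overlap between the treated mutants were common. They were seen for 105 of 139 genes of cytosolic ribosomal proteins and 48 of 66 ribosome biogenesis factors, called or not, so lack of overlap alone says little.

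Among coding genes with a mean of at least 50 counts and no overlap between the strains, the 15 furthest above ubp8 began at a log2 difference of 3.92 ± 0.13, for mug14, an adducin gene of the actin cytoskeleton. All but 1 of them, SPAC11D3.19, reached at most 5.18 ± 0.41, the value of rsv1. The gene rsv1, for a factor needed to survive glucose starvation, had 21.3 and 23.7 CPM in ubp16, against 0.660 and 0.549 CPM in ubp8. The high-affinity glucose transporter gene ght5 stood at 299 and 346 CPM in ubp16, against 14.4 and 11.2 CPM in ubp8, a log2 difference of 4.64 ± 0.14 (adjusted p = 6.3e-12). The oligopeptide transporter gene isp4 had 314 and 488 CPM in ubp16, against 14.5 and 13.4 CPM in ubp8 (log2 difference 4.84 ± 0.35, adjusted p = 3.1e-08). In these 3 genes both ubp16 libraries were many times above both ubp8 libraries, and treated WT was near ubp8 for ght5 (15.3 and 20.6 CPM) and isp4 (14.4 and 15.98 CPM). For the But2 family gene SPAC27D7.11c the libraries read 2085 and 2725 CPM in ubp16, against 80.1 and 85.2 CPM in ubp8. For SPAC4H3.08, annotated as a hydroxyacyl-CoA dehydrogenase, they read 1109 and 1452 CPM in ubp16, against 50.4 and 68.04 CPM in ubp8. Both genes were apart to a similar degree without peroxide, by 4.47 ± 0.17 and 4.87 ± 0.38. The uncharacterized gene SPAC11D3.19 had 356 counts in the ubp16 libraries and 3 in the ubp8 libraries, a ratio of 139.7 per library size with a 95% counting interval of 47.41 to 680.5.

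A second set among the highest genes was further apart after peroxide than before it. Of these the alcohol dehydrogenase gene adh8 stood at 1731 and 1524 CPM in ubp16, against 104 and 89.3 CPM in ubp8 after peroxide and 30.6 and 38.6 CPM in ubp16, against 22.5 and 23.2 CPM in ubp8 without it. The hydrolase gene hhy1 read 1093 and 979.6 CPM in ubp16, against 69.3 and 31.6 CPM in ubp8 after peroxide, a log2 difference of 4.35 ± 0.25, and 2.51 ± 0.32 was its untreated difference. Treated WT was below both mutants for both genes, at 30.4 and 37.99 CPM for adh8 and 5.58 and 4.54 CPM for hhy1.

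**Figure D2:**
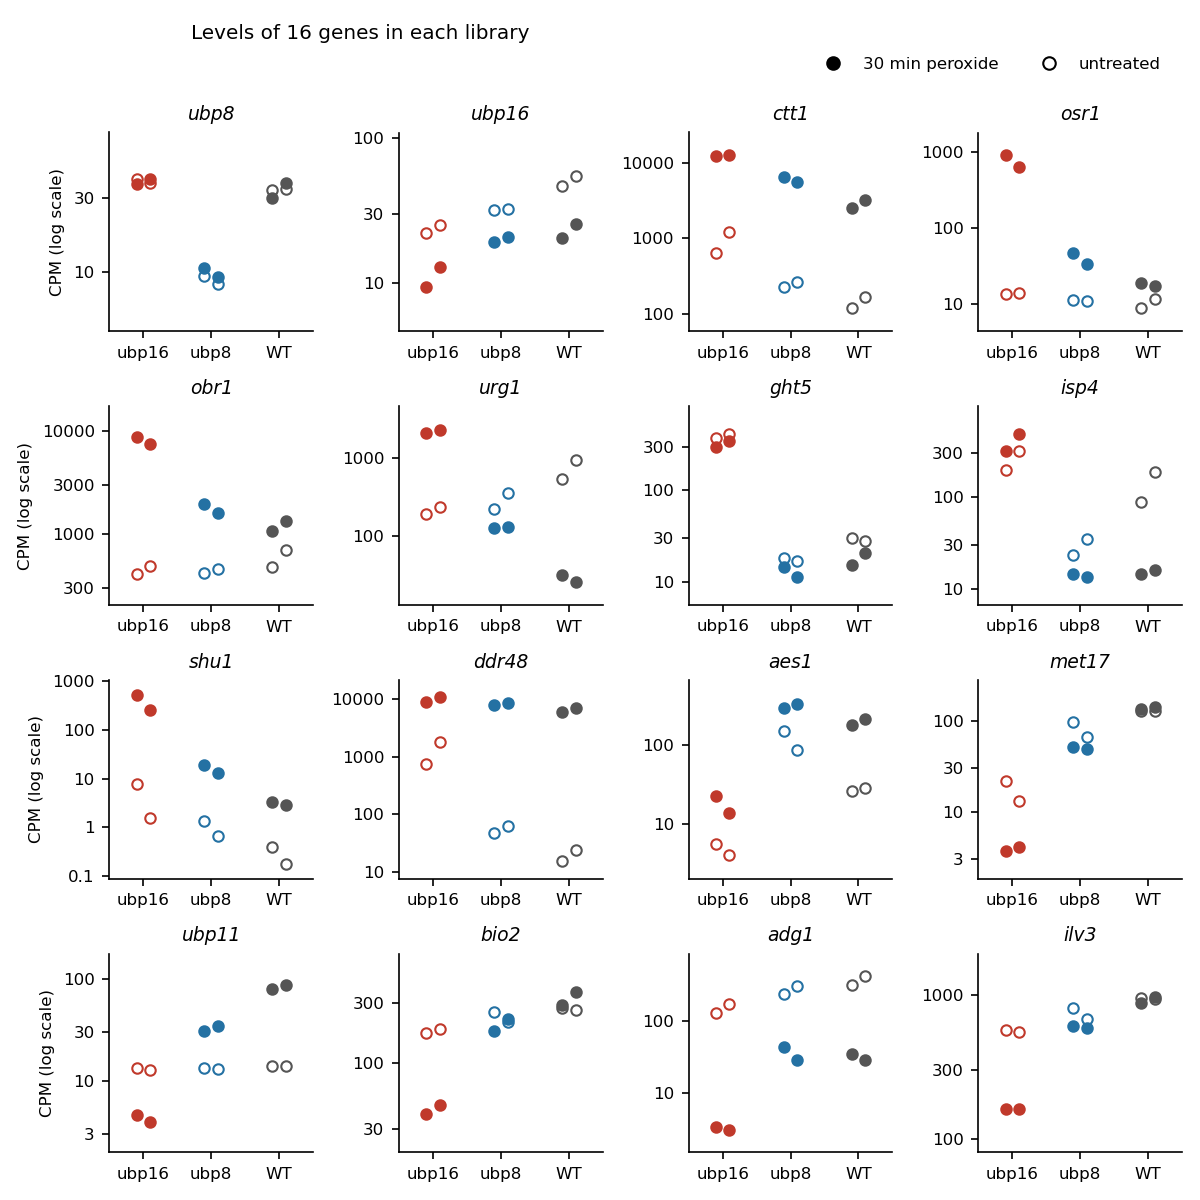
CPM on a log axis for 16 genes, with ubp16, ubp8 and WT from left to right, filled points after peroxide and open points without it, 1 point per library. The 2 libraries of a group mostly lie close together, the ubp8 gene is lowest in ubp8, and urg1, osr1 and obr1 lie much further apart between the mutants after peroxide than without it.

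The uracil-regulated genes belonged with that set. All 3 members of this group, which work in uracil breakdown and are switched on by uracil, were higher in ubp16 after peroxide. Their median log2 difference was 3.10, while 2 of the 3 were lower in ubp16 without peroxide. The GTP cyclohydrolase gene urg1 had 2101 and 2339 CPM in ubp16, against 127 and 131 CPM in ubp8 after peroxide and 192 and 236 CPM in ubp16, against 226 and 354 CPM in ubp8 without it. The uracil phosphoribosyltransferase gene urg2 had 1297 and 1417 CPM in ubp16, against 152 and 164 CPM in ubp8 after peroxide, and 174 and 194 CPM in ubp16, against 258 and 402 CPM in ubp8 without it. The third, urg3, read 555 and 609.7 CPM in ubp16, against 117 and 109 CPM in ubp8. None of the ubp16 and ubp8 libraries overlapped after peroxide, as was common in the gene groups. Treated WT lay below both mutants for all 3 genes, at 31.9 and 26.1 CPM for urg1, against 542 and 938 CPM in untreated WT. The change of the difference with peroxide was 4.55 ± 0.32 for urg1, 3.95 ± 0.27 for urg2 and 2.73 ± 0.18 for urg3, each called.

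Pap1 targets were higher in ubp16 as a group after peroxide. Of the 12 members 11 were higher and none lower, against 31.3% and 18.2% of all coding genes. The median log2 difference was 1.76, against 0.17 without peroxide. The quinone reductase gene obr1, a classical target, had 8676 and 7418 CPM in ubp16, against 1971 and 1589.8 CPM in ubp8 after peroxide and 412 and 487 CPM in ubp16, against 417 and 456 CPM in ubp8 without it. The libraries overlapped only without the oxidant, and the treated difference was 2.18 ± 0.18 (adjusted p = 1.2e-07). The dehydrogenase gene osr1 had 888 and 618 CPM in ubp16, against 46.9 and 34.1 CPM in ubp8. The stress gene sro1 had 404 and 437 CPM in ubp16, against 53.2 and 71.3 CPM in ubp8. Treated WT was below both mutants for osr1, at 19.1 and 17.6 CPM, and near ubp8 for sro1, at 67.8 and 85.3 CPM. The member not called was the glutathione transferase gene gst3, with 724 and 771 CPM in ubp16, against 735 and 697 CPM in ubp8. For 9 of 12 members the strain difference was higher after peroxide than before it and for 1, gst3, it was lower, or for 2 without ubp8 untreated library 1 or ubp16 untreated library 1.

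The promoters of 3 Pap1-regulated genes are shown because the group moved together. Each run holds 250 bases before and 50 after the annotated gene start on the gene's strand, from RefSeq assembly ASM294v3, and capitals mark TTACGTAA or TTACTAA, letters known to bind Pap1, searched on both strands. The obr1 stretch is chrI:2094935-2095234 (minus strand), that of the multidrug transporter gene caf5 is chrII:3166331-3166630 (plus strand) and that of the sulfiredoxin gene srx1 is chrII:376963-377262 (minus strand).
obr1: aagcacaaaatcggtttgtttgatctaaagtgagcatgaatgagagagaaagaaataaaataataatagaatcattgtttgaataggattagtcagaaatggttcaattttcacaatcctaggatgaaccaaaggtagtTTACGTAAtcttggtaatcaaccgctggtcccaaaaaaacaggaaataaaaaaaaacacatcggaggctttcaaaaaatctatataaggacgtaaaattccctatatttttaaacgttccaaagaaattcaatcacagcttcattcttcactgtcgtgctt
caf5: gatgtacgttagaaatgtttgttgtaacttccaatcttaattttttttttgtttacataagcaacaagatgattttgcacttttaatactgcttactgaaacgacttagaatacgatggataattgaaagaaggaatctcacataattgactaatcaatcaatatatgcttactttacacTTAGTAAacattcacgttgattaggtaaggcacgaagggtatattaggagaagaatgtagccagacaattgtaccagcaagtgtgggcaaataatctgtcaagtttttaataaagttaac
srx1: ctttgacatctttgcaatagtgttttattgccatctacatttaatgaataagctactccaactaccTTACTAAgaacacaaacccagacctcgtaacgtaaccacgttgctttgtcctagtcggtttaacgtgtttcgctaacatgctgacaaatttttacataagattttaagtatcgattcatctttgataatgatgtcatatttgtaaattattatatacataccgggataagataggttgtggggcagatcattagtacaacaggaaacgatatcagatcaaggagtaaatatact
The letters TTACGTAA stood in 1 of the 12 Pap1 target promoters (8.33%) and in 24 of the 4954 promoters of coding genes tested (0.484%), and TTACTAA in 4 of the 12 (33.3%) and in 602 of the 4954 (12.2%). Among the 256 coding genes higher by 2-fold or more 49 had TTACTAA (19.1%), and among the 137 lower by as much 17 had it (12.4%). In the same sets TTACGTAA was in 4 (1.56%) and 1 (0.73%). Among the 139 promoters whose strain difference changed upward by 2-fold or more 30 had TTACTAA (21.6%) and 1 had TTACGTAA (0.719%), and among the 163 that changed downward by as much 18 had TTACTAA (11.0%) and 5 had TTACGTAA (3.07%).

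Antioxidant enzymes were called in both directions. Of 27 members 15 were higher and 4 lower after peroxide (median 0.53), and 15 and 2 without it (median 0.38). In the thioredoxin system the reductase gene trr1 had 9105 and 7610.3 CPM in ubp16, against 2583 and 1597 CPM in ubp8. The main peroxiredoxin gene, tpx1, had 9167 and 7383 CPM in ubp16, against 3271 and 2496 CPM in ubp8. Both were higher in ubp16. Their log2 differences were 1.999 ± 0.17 (adjusted p = 2.3e-07) and 1.52 ± 0.15 (adjusted p = 9e-07), without overlap between the libraries, and treated WT had 737 and 752 CPM for trr1 and 2114 and 2111 CPM for tpx1. Before peroxide trr1 was at 327 and 326 CPM in ubp16, against 383 and 340.5 CPM in ubp8, without a call, and tpx1 was lower in ubp16, at 391.8 and 498 CPM in ubp16, against 597 and 571 CPM in ubp8, though not without ubp8 untreated library 1 or 2 or ubp16 untreated library 1. The glutathione peroxidase gene gpx1, an Atf1 target, had 2073 and 2263 CPM in ubp16, against 2628 and 2967 CPM in ubp8 and was not called. Nor was the superoxide dismutase gene sod1, with 1884 and 2369 CPM in ubp16, against 1693 and 2044 CPM in ubp8. The glutathione transferase gene gst1 was lower, at 3.22 and 3.90 CPM in ubp16, against 9.61 and 8.96 CPM in ubp8. Without ubp8 library 2 or without ubp16 library 1 there were 2 lower members and not 4.

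Core stress genes were apart mainly before peroxide. After peroxide 6 of the 20 members were higher in ubp16 and 2 lower (median 0.17), while without it 18 were higher and none lower (median 1.56), and for 15 of them the strain difference was lower after the treatment. The genes ddr48, lsd90 and SPBC24C6.09c, given next, were named for their large downward changes, and ddr48 is not a member of the list. The stress gene ddr48 had 8887 and 10815 CPM in ubp16, against 7968 and 8454 CPM in ubp8 after peroxide, where the strains were not called apart. It had 756 and 1799 CPM in ubp16, against 46.03 and 61.04 CPM in ubp8 without peroxide. The gene lsd90 had 7294 and 8893 CPM in ubp16, against 4365 and 4504 CPM in ubp8 after peroxide and 1012 and 2253 CPM in ubp16, against 36.8 and 62.6 CPM in ubp8 without it. Its treated difference of 0.87 ± 0.27 was called, but not when ubp8 library 1, ubp8 library 2 or ubp16 library 2 was left out. The 2 untreated ubp16 libraries were themselves apart in such genes, library 2 being more than 2 times library 1 for both. The phosphoketolase family gene SPBC24C6.09c read 2558 and 3126 CPM in ubp16, against 1853 and 2086 CPM in ubp8 after peroxide and 212 and 466 CPM in ubp16, against 11.6 and 12.4 CPM in ubp8 before, and its strain difference changed by -4.28 ± 0.36. Among members called higher after peroxide, the hexitol dehydrogenase gene tms1 had 969 and 840.3 CPM in ubp16, against 406 and 308 CPM in ubp8. The pyridoxal reductase gene plr1 had 4362 and 4023 CPM in ubp16, against 1478 and 1215 CPM in ubp8. The phosphatase gene pyp2, whose product switches Sty1 off, was lower, at 111 and 197 CPM in ubp16, against 487 and 513 CPM in ubp8, and treated WT had 677 and 728 CPM (log2 difference -1.70 ± 0.18, adjusted p = 3.1e-06). The count of lower members was 5 with library totals or when only the 4 treated libraries were fitted, and 1 without ubp8 library 1, ubp8 library 2 or ubp16 library 1.

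The enzymes of trehalose and glycerol, stress solutes of this yeast, were also apart mainly before peroxide. After peroxide 1 of 7 members was higher and 1 lower (median 0.07, or -0.05 with library totals), while 6 were higher without it (median 1.05) and 6 changed downward with the treatment. The glycerol phosphate dehydrogenase gene gpd1 had 4496 and 5284 CPM in ubp16, against 5687 and 6260.0 CPM in ubp8 after peroxide, without a call, and 1539.9 and 2489 CPM in ubp16, against 1098 and 1290.3 CPM in ubp8 before, where it was higher in ubp16, though not without ubp8 untreated library 1 or ubp16 untreated library 2. The related gene gpd2 was lower after peroxide, at 141 and 135 CPM in ubp16, against 241 and 256 CPM in ubp8. The glycerol dehydrogenase gene gld1 was higher, at 19.8 and 35.6 CPM in ubp16, against 7.04 and 9.42 CPM in ubp8, with its 2 ubp16 libraries nearly 2 times apart. The promoter of gpd1, chrII:4035316-4035615 (plus strand, same window and assembly), is shown because it holds 2 copies of TGACGT, in capitals, the core of the element that Atf1 binds. The same stretch also holds TTACGTAA, among the letters marked above for Pap1, left here in lower case.
gpd1: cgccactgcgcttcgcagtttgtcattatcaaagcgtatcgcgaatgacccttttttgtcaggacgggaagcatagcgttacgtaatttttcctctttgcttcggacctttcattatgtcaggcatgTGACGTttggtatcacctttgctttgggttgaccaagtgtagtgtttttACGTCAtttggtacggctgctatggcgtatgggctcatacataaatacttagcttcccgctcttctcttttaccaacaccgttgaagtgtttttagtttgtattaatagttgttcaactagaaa
TGACGT, searched on both strands, stood in 29 of the 163 coding promoters (17.8%) whose strain difference was called lower by 2-fold or more after peroxide than before. It stood in 295 of all 4954 (5.95%), in 5 of the 139 (3.60%) whose strain difference changed upward by 2-fold or more, and in 17 of the 256 (6.64%) higher by 2-fold or more after peroxide.

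Stress signalling genes were called in both directions. Of 18 members 7 were higher and 3 lower after peroxide, with a median of 0.12, and 15 were higher without it. The gene of Pap1 itself was higher in ubp16, at 374 and 317 CPM in ubp16, against 214 and 199.9 CPM in ubp8. So was win1, for a kinase at the top of the MAP kinase cascade, at 125 and 131 CPM in ubp16, against 69.9 and 70.8 CPM in ubp8. The sensor kinase gene mak1, at 239.9 and 253 CPM in ubp16, against 144 and 142 CPM in ubp8, was a further higher member. For the factor gene atf1 no call was made at 375 and 409 CPM in ubp16, against 352 and 345 CPM in ubp8. The Sty1-activated kinase gene srk1 had 926 and 1124 CPM in ubp16, against 1231 and 1245 CPM in ubp8 and was not called either. With library totals 5 members were lower.

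Glucose-repressed genes were far apart in both conditions. Of 16 members tested 10 were higher and 2 lower after peroxide (median 1.97), and the counts were the same without it (median 2.09). Besides ght5, the hexose transporter gene ght4 had 431 and 569 CPM in ubp16, against 29.3 and 33.2 CPM in ubp8. The dihydroxyacetone kinase gene dak1 had 5232 and 5022 CPM in ubp16, against 536 and 432 CPM in ubp8. The log2 differences of ght4 and dak1 were 4.002 ± 0.17 and 3.41 ± 0.16. The fructose bisphosphatase gene fbp1, needed to make glucose anew, read 141 and 149.6 CPM in ubp16, against 15.8 and 13.7 CPM in ubp8 after peroxide and 251 and 372 CPM in ubp16, against 6.44 and 8.90 CPM in ubp8 before. The malic enzyme gene mae2 was not called after peroxide, with 4961 and 4719.7 CPM in ubp16, against 4052 and 3933 CPM in ubp8. For the mitochondrial glycerol phosphate dehydrogenase gene gut2, with 1335 and 1735 CPM in ubp16, against 1965 and 1921 CPM in ubp8, the strains were not called apart either. Without ubp8 library 2 or either ubp16 library 1 member was lower and not 2.

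Glycolysis leaned the other way. Of 18 members 4 were higher and 9 lower, with a median of -0.34 after peroxide and -0.57 without it. The aldolase gene fba1 had 3630.5 and 3699 CPM in ubp16, against 7315 and 7069.5 CPM in ubp8, a log2 difference of -0.97 ± 0.13 (adjusted p = 1.8e-05), and treated WT had 8619 and 9033 CPM. The alcohol dehydrogenase gene adh4, which zinc also regulates, was lower at 59.4 and 45.6 CPM in ubp16, against 129.5 and 114 CPM in ubp8. Among the higher members, the pyruvate decarboxylase gene pdc201 had 42.9 and 39.8 CPM in ubp16, against 7.18 and 6.77 CPM in ubp8. The glyceraldehyde phosphate dehydrogenase gene gpd3 was also higher, at 233 and 171 CPM in ubp16, against 66.1 and 69.7 CPM in ubp8. Pyruvate kinase RNA, from pyk1, was at 3016 and 2688 CPM in ubp16, against 3201 and 3061 CPM in ubp8, without a call.

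Genes of mating and nitrogen starvation were higher in ubp16 in both conditions. Of 20 members 15 were higher and 2 lower after peroxide (median 1.45), and 15 and 1 without it (median 0.98). The master factor gene of sexual development, ste11, had 39.5 and 33.9 CPM in ubp16, against 6.23 and 4.94 CPM in ubp8, and treated WT had 0.737 and 0.987 CPM. The gene mei2, whose RNA-binding product starts meiosis, had 17.3 and 13.3 CPM in ubp16, against 1.91 and 2.01 CPM in ubp8. The oxygenase gene isp7 had 241 and 223 CPM in ubp16, against 40.2 and 33.5 CPM in ubp8. The log2 differences of these 3 genes were 2.70 ± 0.18, 2.96 ± 0.23 and 2.65 ± 0.11. The vacuolar amino acid transporter gene fnx1 was not called, at 71.9 and 64.6 CPM in ubp16, against 77.3 and 79.9 CPM in ubp8. Nor was fus1, for the formin of cell fusion, at 60.6 and 68.95 CPM in ubp16, against 52.6 and 65.8 CPM in ubp8. Meiotic genes as a list gave no such lean: 3 of 19 were higher and 2 lower (median 0.18), and the higher count was 0 without ubp8 library 2 and 1 without either ubp16 library.

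Mating-type markers bear on what the strains are. WT strain 972 is of the minus mating type, which expresses M-cell genes, and the labels give no mating type for the mutants. M-cell markers summed to 311.4 and 269.9 CPM in ubp16, against 126.8 and 124.9 CPM in ubp8, with 98.29 and 96.59 CPM in WT, and 6 of 8 members were higher in ubp16, none lower (median 1.54). The M-factor gene mfm1 had 7.45 and 7.39 CPM in ubp16, against 0.513 and 0.732 CPM in ubp8. A further gene for this pheromone, mfm2, had 18.9 and 16.4 CPM in ubp16, against 2.57 and 2.47 CPM in ubp8. For mam2, the receptor of the opposite pheromone, the levels were 20.3 and 10.4 CPM in ubp16, against 1.83 and 2.74 CPM in ubp8. P-cell markers summed to 921.1 and 884.5 CPM in ubp16, against 829.3 and 877.1 CPM in ubp8, with 764.2 and 840.8 CPM in WT, and 2 of 5 were higher. Most of that sum was sxa1, a protease gene that was not called, and without it the sums were 91.1 and 78.4 CPM in ubp16, against 47.95 and 37.4 CPM in ubp8, with 18.7 and 17.1 CPM in WT. One was the adhesin gene map4, at 34.7 and 24.98 CPM in ubp16, against 11.7 and 11.3 CPM in ubp8. The other was the factor gene map1, at 47.4 and 45.9 CPM in ubp16, against 27.9 and 19.9 CPM in ubp8. No marker of either list was at 0 in all 4 treated mutant libraries. In RNA from whole cultures, fewer cells of a type and less RNA per cell cannot be told apart, and the part of mating type in the results was not tested.

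Iron and heme uptake genes, which the repressor Fep1 keeps off in iron-rich cells, were mostly higher in ubp16. Of 12 members 9 were higher and 2 lower (median 0.64), against 4 and none without peroxide. The heme uptake gene shu1 had 530.0 and 255 CPM in ubp16, against 19.5 and 12.99 CPM in ubp8, a log2 difference of 4.58 ± 0.35 (adjusted p = 6.7e-08). Its 2 ubp16 libraries differed by about 2 times, and treated WT was lower than both mutants at 3.26 and 2.86 CPM. The transporter gene str3 had 411 and 405 CPM in ubp16, against 53.7 and 51.8 CPM in ubp8. Treated WT was again the lowest, at 13.6 and 9.08 CPM. The ferroxidase gene fio1 had 73.4 and 72.8 CPM in ubp16, against 26.5 and 27.4 CPM in ubp8, with 14.6 and 14.6 CPM in treated WT. Its partner in reductive iron uptake, the permease gene fip1, had 254 and 214 CPM in ubp16, against 104 and 123 CPM in ubp8, with 72.2 and 85.5 CPM in treated WT. The vacuolar exporter gene abc3, at 206 and 222 CPM in ubp16, against 198 and 212 CPM in ubp8, was the only member not called. The lower count was 1 without either ubp8 library or without ubp16 library 2.

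Promoters of shu1, chrI:86229-86528 (minus strand), and fio1, chrI:4234822-4235121 (plus strand), are given as examples of uptake genes with the letters TGATAA, in capitals, one form of the GATA element that Fep1 binds.
shu1: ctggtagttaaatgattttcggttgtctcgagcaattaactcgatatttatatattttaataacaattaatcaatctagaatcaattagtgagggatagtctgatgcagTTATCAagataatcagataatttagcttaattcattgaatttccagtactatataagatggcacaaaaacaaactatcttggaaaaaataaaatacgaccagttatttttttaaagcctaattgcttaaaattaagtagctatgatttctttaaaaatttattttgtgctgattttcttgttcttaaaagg
fio1: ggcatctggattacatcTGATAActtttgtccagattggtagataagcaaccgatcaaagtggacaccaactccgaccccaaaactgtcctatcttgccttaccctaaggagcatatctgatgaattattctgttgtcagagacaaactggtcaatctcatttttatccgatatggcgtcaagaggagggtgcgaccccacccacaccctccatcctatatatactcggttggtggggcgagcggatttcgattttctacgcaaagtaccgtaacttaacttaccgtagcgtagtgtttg
TGATAA, searched on both strands, was in 7 of the 12 uptake promoters (58.3%) and in 1329 of the 4954 coding promoters (26.8%), with 71 of the 256 (27.7%) higher by 2-fold or more.

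Iron-using genes, of iron-sulfur clusters, heme synthesis and iron storage, were called in both directions. Of 27 members 7 were higher and 10 lower after peroxide (median -0.06, or 0.09 without ubp16 library 1), while 18 were higher and 1 lower without it. The dihydroxy-acid dehydratase gene ilv3, an iron-sulfur enzyme of branched amino acid synthesis, had 162 and 162 CPM in ubp16, against 614 and 591 CPM in ubp8 after peroxide and 569.8 and 556 CPM in ubp16, against 815 and 677 CPM in ubp8 before. The glutamate synthase gene glt1 was lower, at 18.3 and 21.6 CPM in ubp16, against 65.2 and 70.8 CPM in ubp8. So was hem3, of heme synthesis, at 10.4 and 11.4 CPM in ubp16, against 23.1 and 26.6 CPM in ubp8. The log2 differences of these 3 genes were -1.90 ± 0.11, -1.77 ± 0.13 and -1.19 ± 0.18. The list also holds gdh2, whose NAD-dependent glutamate dehydrogenase belongs to none of those 3 kinds, and which was higher, at 121 and 114 CPM in ubp16, against 47.1 and 45.5 CPM in ubp8. Aconitase, aco1, had 579.7 and 697 CPM in ubp16, against 567 and 646 CPM in ubp8 and was not called. For 16 members the strain difference was lower after peroxide than before, or for 10 without ubp16 library 1.

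Among the coding genes lowest in ubp16, by the same limits on counts and overlap, the factor gene grt1 had 0.184 and 0.3997 CPM in ubp16, against 9.02 and 9.24 CPM in ubp8. The treated ubp16 libraries held only 6 counts of grt1, against 224 in ubp8, so the size of that difference is uncertain. The gene aes1, for a phenazine biosynthesis family protein, had 22.4 and 13.8 CPM in ubp16, against 294 and 336 CPM in ubp8. Both were lower without peroxide too, by -5.14 ± 0.38 and -4.62 ± 0.28 on the log2 scale. The methyltransferase gene SPCC70.08c had 12.4 and 6.70 CPM in ubp16, against 120.5 and 162 CPM in ubp8, and treated WT was higher than both mutants, at 324 and 389 CPM. The same order, ubp16 lowest and WT highest, was seen for the biotin synthase gene bio2, with 39.3 and 46.8 CPM in ubp16, against 179.8 and 224 CPM in ubp8 and 288 and 371 CPM in WT. It was seen again for the protease gene ubp11, with 4.60 and 3.997 CPM in ubp16, against 30.7 and 34.6 CPM in ubp8 and 79.2 and 87.9 CPM in WT. Without peroxide ubp11 had 13.5 and 12.8 CPM in ubp16, against 13.4 and 13.04 CPM in ubp8, so that the gap appeared with the oxidant. The pyridoxine transporter gene SPCC576.17c, at 14.8 and 18.8 CPM in ubp16, against 100.4 and 101 CPM in ubp8, was lower after peroxide, while its untreated levels were 11.3 and 14.9 CPM in ubp16, against 13.5 and 17.5 CPM in ubp8, without a call. The maltase gene mal1 was lower, with 7.54 and 5.20 CPM in ubp16, against 37.98 and 32.5 CPM in ubp8. The meiotic septin gene spn5 had 2.02 and 3.80 CPM in ubp16, against 14.4 and 14.4 CPM in ubp8. In the cysteine transporter gene SPBPB10D8.01, the last named here, the libraries had 5.24 and 3.10 CPM in ubp16, against 27.2 and 30.6 CPM in ubp8.

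Sulfur assimilation included met17, another of the lowest 15 coding genes by those limits. Of 17 members 3 were higher and 7 lower (median -0.19, against 0.05 without peroxide). The homocysteine synthase gene met17 had 3.68 and 4.10 CPM in ubp16, against 51.5 and 48.9 CPM in ubp8, and treated WT had 136 and 140.5 CPM (log2 difference -3.69 ± 0.24, adjusted p = 1.4e-08). The sulfite reductase gene met10 had 59.5 and 65.2 CPM in ubp16, against 138 and 129 CPM in ubp8. The adenylylsulfate kinase gene met14 had 164 and 201 CPM in ubp16, against 281 and 292 CPM in ubp8. The gene met6, whose enzyme acetylates homoserine for methionine synthesis, had 236 and 262 CPM in ubp16, against 392.5 and 384 CPM in ubp8. Those 3 had log2 differences of -1.10 ± 0.11, -0.65 ± 0.10 and -0.64 ± 0.10. The sulfate-activating gene sua1, at 455 and 496 CPM in ubp16, against 447 and 391 CPM in ubp8, was not called. The S-adenosylmethionine synthetase gene sam1, at 357 and 393 CPM in ubp16, against 453 and 399.7 CPM in ubp8, was not called either.

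Genes often used as markers in laboratory strains were lower in ubp16, 9 of 10 members, with none higher and a median of -0.63. All are enzymes of amino acid or nucleotide synthesis. The histidine gene his2 had 199 and 217 CPM in ubp16, against 426 and 465 CPM in ubp8, and treated WT had 636 and 669 CPM. The uracil gene ura4 had 117 and 119 CPM in ubp16, against 221 and 219 CPM in ubp8. The leucine gene leu1 had 318 and 295 CPM in ubp16, against 523 and 479.9 CPM in ubp8. None of these 3 genes had overlapping libraries, as was common in the gene groups. Summed over the list the levels were 2168 and 2164 CPM in ubp16, against 3265 and 3262 CPM in ubp8, with 4344 and 4541 CPM in WT, and no member was at 0 in all 4 treated mutant libraries. Without peroxide 2 were higher and 1 lower (median -0.03), and the strain difference changed downward for 8 members, or for 3 to 5 without ubp8 untreated library 2 (5), ubp8 treated library 1 (3) or ubp16 treated library 1 (4) or 2 (5).

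Of 66 ribosome biogenesis factors 28 were lower in ubp16 after peroxide, which is 42.4%, against 18.2% of all coding genes. A further 3 were higher and 35 were not called, with a median of -0.18 over the list. Without peroxide 5 were lower and 7 higher. The processing factor gene kri1 had 46.99 and 52.96 CPM in ubp16, against 87.98 and 101 CPM in ubp8. The gene utp4, of the small-subunit processome, had 86.2 and 72.7 CPM in ubp16, against 131 and 133 CPM in ubp8. In the same complex nop14 had 44.7 and 50.8 CPM in ubp16, against 78.9 and 79.02 CPM in ubp8. Treated WT was above both mutants for each, at 139 and 146 CPM, 240.4 and 228 CPM and 118 and 114 CPM. The nucleolin gene gar2 had 476 and 374 CPM in ubp16, against 491 and 444 CPM in ubp8 and was not called. Without ubp16 library 2 there were 6 higher members and not 3.

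Of 139 genes of cytosolic ribosomal proteins 35 were lower and 6 higher, with a median of -0.12, against 4 and 23 without peroxide. The 25.2% called lower stands beside 18.2% of all coding genes and 21.3% of all genes. The 4.32% called higher stands beside 31.3% of all coding genes and 22.3% of all genes. The member furthest apart was rps1401, with 81.6 and 70.2 CPM in ubp16, against 197 and 179 CPM in ubp8. Next came rps2202, with 195 and 192 CPM in ubp16, against 375 and 432 CPM in ubp8. Many of these genes have near-identical copies that read counting could split, so that single members are uncertain. The lower count was 82 with library totals, 22 and 17 without ubp8 library 1 or 2, and 9 without ubp16 library 1, and the higher count was 1 without ubp8 library 2 or ubp16 library 2.

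Chaperones were lower or not called. Of 20 members 7 were lower and none higher (median -0.20), with 8 lower and 1 higher without peroxide. The small heat shock gene hsp16 had 204 and 182 CPM in ubp16, against 375 and 648 CPM in ubp8, and treated WT had 1570.0 and 1666 CPM. The mitochondrial disaggregase gene hsp78 had 830.4 and 846 CPM in ubp16, against 1282 and 1304 CPM in ubp8, with 2468 and 2487 CPM in WT. The ribosome-bound chaperone gene sks2 had 2678 and 2858 CPM in ubp16, against 4077 and 4026 CPM in ubp8. For all 7 lower members the treated WT mean was above both mutants. The lower count was 13 with library totals and 4 without ubp16 library 1.

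Cell separation genes, whose products dissolve the septum, gave 4 lower and 1 higher of 12 (median -0.30). The glycoprotein gene adg1 had 3.49 and 3.10 CPM in ubp16, against 43.1 and 28.6 CPM in ubp8 after peroxide and 126 and 168 CPM in ubp16, against 231 and 295 CPM in ubp8 before, where the strains were closer. Also lower was adg2, at 32.1 and 32.8 CPM in ubp16, against 78.8 and 57.6 CPM in ubp8. The higher member was sep1, a forkhead factor gene, at 174 and 174 CPM in ubp16, against 101 and 106 CPM in ubp8. Without ubp8 library 1 the counts were 2 lower and 2 higher.

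Cell wall genes were called higher more often than lower, 12 of 18 against 2, with a median of 0.41. The glucanosyltransferase gene gas5 was higher, with 74.3 and 78.05 CPM in ubp16, against 43.8 and 37.8 CPM in ubp8. The spore wall glucan synthase gene bgs2 was higher, with 78.4 and 73.5 CPM in ubp16, against 45.5 and 42.4 CPM in ubp8. For bgs4, which makes glucan of the wall and septum, the levels were 268 and 251 CPM in ubp16, against 228 and 234 CPM in ubp8, without a call. The lower count was 1 without either ubp8 library or without ubp16 library 2. Of 9 flocculin genes, the cell surface adhesins, 1 was higher and 3 lower (median 0.15), and the higher count was 2 without ubp16 library 1. Of the lower ones pfl9 had 3.13 and 2.60 CPM in ubp16, against 6.60 and 6.77 CPM in ubp8.

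Of 13 genes of the G1/S factor MBF 2 were higher and 5 lower (median -0.18, or 0.01 without ubp16 library 1). The replication licensing gene cdc18 had 47.1 and 53.1 CPM in ubp16, against 82.1 and 76.5 CPM in ubp8. It was lower in ubp16, while ctp1, for a DNA repair nuclease, was higher, at 199 and 209 CPM in ubp16, against 120.1 and 101 CPM in ubp8. The lower count was 2 without ubp8 library 1 and 3 without ubp16 library 2, and the higher count was 1 without either ubp8 library or ubp16 library 1.

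Genes of the pathway in which Ubp8 works are few, and their counts are given without reading a lean from them. Of 11 genes listed for H2B ubiquitination and the H3K4 methyltransferase complex 2 were higher (18.2%) and 1 lower (9.09%, median -0.07). Without peroxide 5 were higher and none lower (median 0.22). A member counted as higher in both conditions is annotated as a DNA primase subunit and belongs to neither kind. The conjugating enzyme gene rhp6 was higher, at 211 and 212 CPM in ubp16, against 181 and 168 CPM in ubp8, but not called with library totals or without ubp8 library 2 or ubp16 library 2. The ligase gene brl1 had 93.6 and 86.9 CPM in ubp16, against 99.5 and 104 CPM in ubp8, without a call. The lower count was 0 without ubp8 library 2 or either ubp16 library, and the higher count was 1 without ubp8 library 2 or ubp16 library 2. Of 11 core histone genes 2 were higher and 1 lower (median 0.03, or -0.09 with library totals), and the higher count was 1 without ubp8 library 1. The H2B gene htb1 had 626 and 607 CPM in ubp16, against 514 and 525 CPM in ubp8, a log2 difference of 0.25 ± 0.10 that was not called, though it was under 5 of the 13 alternatives. Histone H3 and H4 genes have near-identical copies and are uncertain one by one.

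Of 19 SAGA genes, ubp8 included, 4 were higher and 3 lower (median 0.08, or -0.03 with library totals), while 13 were higher and none lower without peroxide (median 0.38). In the module that holds Ubp8, sgf73 was higher, at 156 and 116 CPM in ubp16, against 80.9 and 58.5 CPM in ubp8. In the same module sus1 was lower, at 15.1 and 19.1 CPM in ubp16, against 28.01 and 27.2 CPM in ubp8, though not without ubp16 library 1. The structural gene spt3 was higher, at 53.7 and 62.9 CPM in ubp16, against 33.6 and 30.2 CPM in ubp8. The count of lower SAGA genes was 1 without either ubp8 library and 0 without ubp16 library 1. Of 15 genes listed as ubiquitin-specific proteases, both mutated genes included, 5 were higher and 2 lower (median 0.13), with 9 higher and 1 lower without peroxide. A member counted as higher after peroxide is annotated as a subunit of a poly(A)-specific ribonuclease complex and not as a ubiquitin protease. Besides ubp8, the gene ubp14 was among the higher ones, with 216 and 246 CPM in ubp16, against 166 and 181 CPM in ubp8. For ubp15 the levels were 769 and 885 CPM in ubp16, against 798 and 792 CPM in ubp8, without a call.

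Respiratory and autophagy genes were called higher at more than the share of all coding genes, 77.1% and 65.0% against 31.3%. Of 35 nuclear genes of the respiratory chain 27 were higher and 1 lower after peroxide (median 0.48), and 34 and none without it (median 0.72). The cytochrome oxidase gene cox4 had 281 and 286 CPM in ubp16, against 164 and 140.2 CPM in ubp8. A further subunit gene of the enzyme, cox5, had 243 and 266 CPM in ubp16, against 149.9 and 133 CPM in ubp8. Treated WT was nearer ubp16 than ubp8 for both, at 247 and 239 CPM for cox4 and 232 and 252 CPM for cox5. The NADH dehydrogenase gene nde1 had 870.1 and 879 CPM in ubp16, against 530.3 and 447 CPM in ubp8. Of 20 autophagy genes 13 were higher and 1 lower after peroxide (median 0.54), and 16 and none without it (median 0.55). The mitophagy receptor gene atg43 had 81.7 and 73.3 CPM in ubp16, against 34.1 and 31.6 CPM in ubp8. The gene atg5, needed to conjugate Atg8 to membranes, had 129.5 and 136 CPM in ubp16, against 72.7 and 61.8 CPM in ubp8. Of 32 genes of the proteasome and polyubiquitin 11 were higher and none lower (median 0.17), or 3 lower with library totals, and their 34.4% higher is near the share of all coding genes. The core subunit gene pre5 was higher, at 486 and 412 CPM in ubp16, against 310.5 and 279 CPM in ubp8. The ubiquitin receptor gene rpn10 was higher, at 343 and 328 CPM in ubp16, against 235 and 243 CPM in ubp8. The lower count of the respiratory chain was 0 without ubp8 library 2 or ubp16 library 1, and that of autophagy was 0 without ubp8 library 1 or ubp16 library 1.

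Of 6 phosphate genes 3 were higher and none lower (median 0.41). The phosphate transporter gene pho842 had 45.9 and 31.2 CPM in ubp16, against 9.90 and 10.1 CPM in ubp8 after peroxide and 99.4 and 99.9 CPM in ubp16, against 227 and 196 CPM in ubp8 before, a reversal of order. Of 12 zinc and copper genes 4 were higher and 1 lower (median 0.33), or 8 higher when no low-count filter was used. The copper transporter gene ctr4 was higher, at 187 and 161 CPM in ubp16, against 61.1 and 36.2 CPM in ubp8. The vacuolar copper transporter gene ctr6 was higher, at 476 and 396 CPM in ubp16, against 265 and 241 CPM in ubp8. Only 3 of 15 retrotransposon and subtelomeric helicase genes passed the filter, and they share near-identical copies. Of these Tf2-11 had 1.29 and 0.5996 CPM in ubp16, against 7.33 and 11.9 CPM in ubp8, with 11.1 and 12.5 CPM in treated WT.

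**Figure D3:**
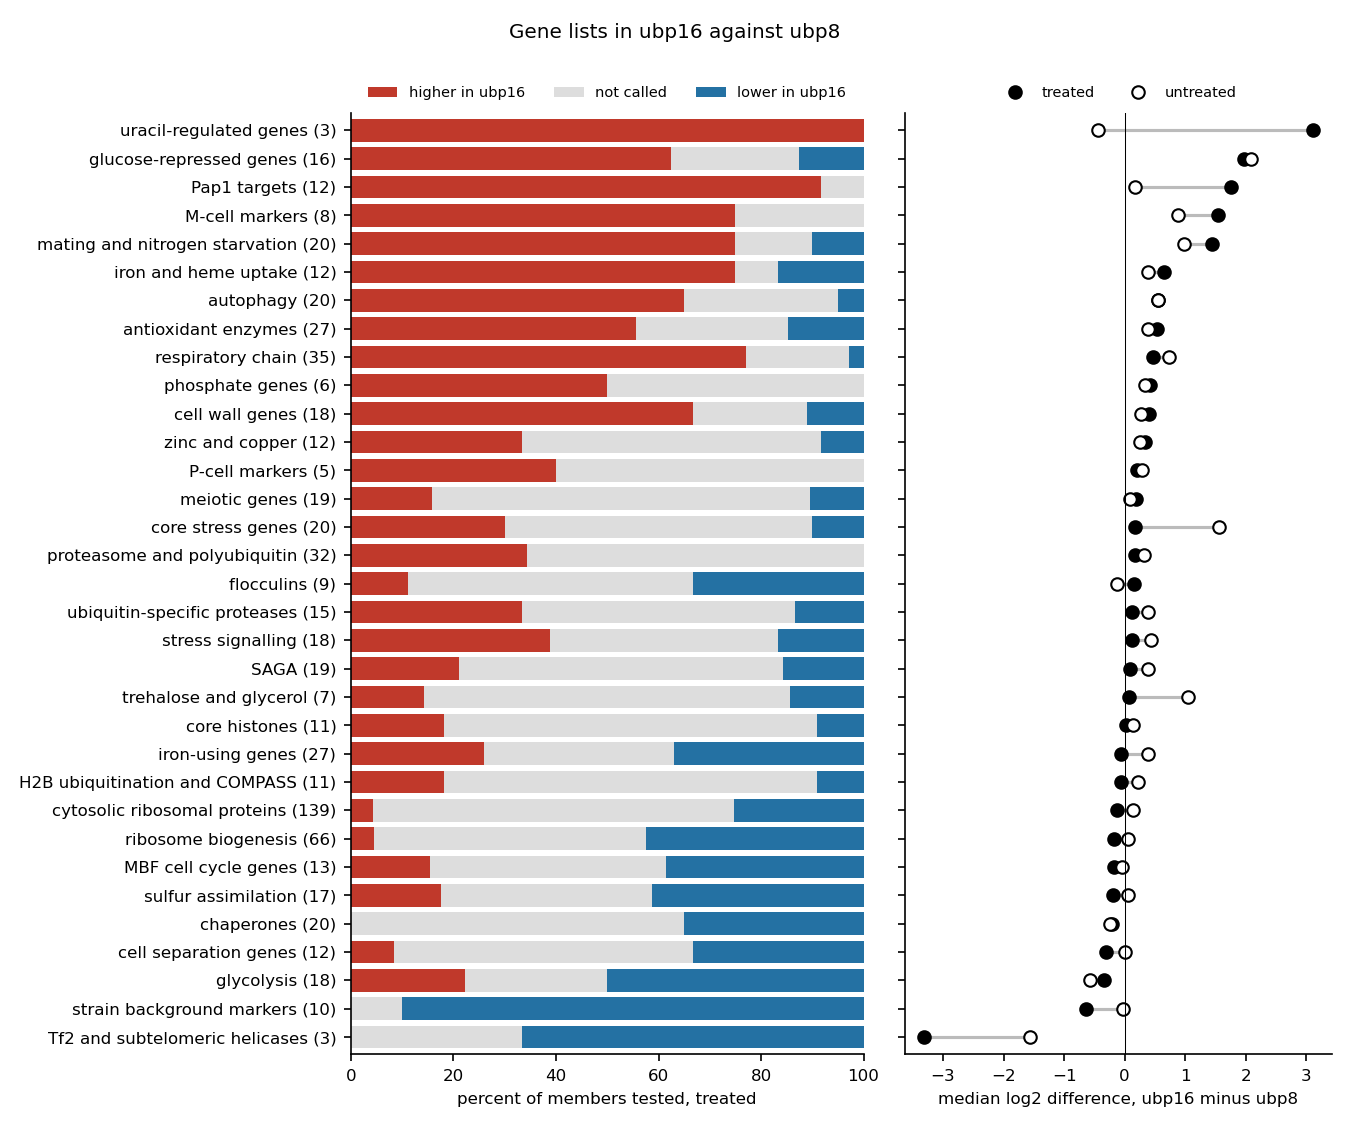
Left, the share of each gene group's tested members called higher or lower in ubp16 than in ubp8 after peroxide. Right, the group's median log2 difference after peroxide (filled) and without it (open), with uracil-regulated genes, glucose-repressed genes and Pap1 targets at the high end.

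Long non-coding RNAs were called lower more often than higher, and coding genes the reverse, though the coding lean turned round with library totals (1112 higher and 1296 lower) and when coding genes were fitted and scaled alone (1243 and 1280). Of 4954 coding genes 1549 were higher in ubp16 (31.3%) and 902 lower (18.2%), with a median of 0.10. Of 3110 long non-coding RNAs 257 were higher (8.26%) and 814 lower (26.2%), with a median of -0.55. Without peroxide the medians were 0.23 and -0.83. The filter ran over all 12 libraries, so an RNA of few counts could pass through the strain where it was high. Those that passed through ubp8 alone would be lower in ubp16 by selection, and their share was not tested. More genes were detected in treated ubp8 (10381 and 10240) than in treated ubp16 (9899 and 9622). With no filter the treated calls over all genes were 2053 higher and 1632 lower. Leaving out ubp16 library 1 left 575 coding genes lower, and the count of long non-coding RNAs lower was 534 without ubp16 library 1 and 524 without ubp16 library 2. Long non-coding RNAs took 1.82% and 1.70% of all counts in the treated ubp16 libraries, against 1.83% and 1.90% in the treated ubp8 libraries and 1.88% and 1.63% in treated WT. Without peroxide the shares were 1.96% and 1.71% in ubp16, against 2.48% and 2.79% in ubp8 and 1.77% and 1.64% in WT. The kit marks strand, but no source used here states whether counting took the strand into account, so antisense and overlapping RNAs are uncertain. Of the named RNAs, omt3, which binds the meiotic Smp proteins, was higher in ubp16, at 52.05 and 43.5 CPM in ubp16, against 1.61 and 0.274 CPM in ubp8. SPNCRNA.1301 was lower, at 0.828 and 1.499 CPM in ubp16, against 24.3 and 21.4 CPM in ubp8, with 2.95 and 1.68 CPM in WT, and the pseudogene SPBPB10D8.03 was lower at 0.920 and 0.999 CPM in ubp16, against 18.2 and 19.5 CPM in ubp8.

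**Figure D4:**
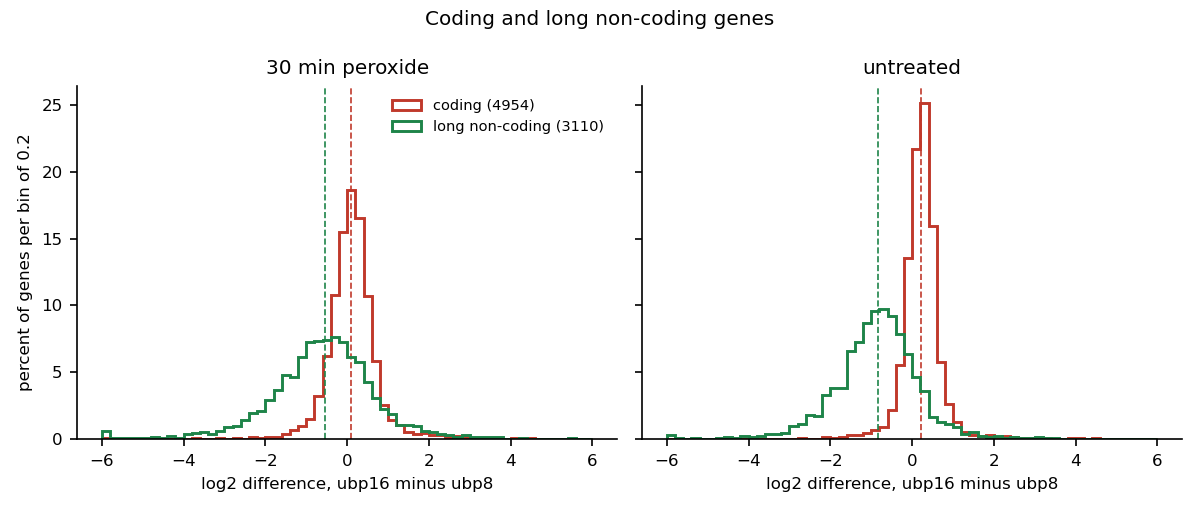
Histograms of the log2 difference between ubp16 and ubp8 for 4954 coding genes and 3110 long non-coding RNAs, after peroxide (left) and without it (right). Dashed lines mark the medians, which lie at -0.55 for long non-coding RNAs and 0.10 for coding genes after peroxide, and values beyond ±6 are in the end bins.

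Whether the strain difference itself changed with peroxide was tested as treated difference minus untreated difference. It was higher for 597 genes (7.31%) and lower for 1120 (13.7%). These counts were 318 and 648 without ubp8 untreated library 2, 482 and 453 without ubp8 treated library 1, 573 and 566 without ubp8 treated library 2, 413 and 380 without ubp16 treated library 1, and 631 and 600 without ubp16 treated library 2. The excess of lower calls was thus absent when any 1 of the 4 treated libraries was left out. Upward changes, beside urg1, urg2 and osr1, included the phosphatase gene SPAC1039.02, with 600.2 and 726 CPM in ubp16, against 256 and 231 CPM in ubp8 after peroxide and 89.2 and 87.97 CPM in ubp16, against 694 and 591 CPM in ubp8 before. Another was the short chain dehydrogenase gene SPCC663.08c, a Pap1 target, with 1577 and 1227 CPM in ubp16, against 180.4 and 104 CPM in ubp8 after and 7.22 and 6.70 CPM in ubp16, against 8.06 and 8.53 CPM in ubp8 before. For SPAC1039.02 the order of the strains turned round with the treatment. The downward changes included hry1, for a cation-binding protein, with 12.9 and 16.8 CPM in ubp16, against 2.27 and 2.83 CPM in ubp8 after peroxide and 8.07 and 32.3 CPM in ubp16, against 0.130 and 0.124 CPM in ubp8 before. Another was the transporter gene SPCC794.04c, with 141 and 204 CPM in ubp16, against 187 and 229.6 CPM in ubp8 after and 82.3 and 125 CPM in ubp16, against 6.05 and 6.92 CPM in ubp8 before. In hry1 the 2 untreated ubp16 libraries were about 4 times apart. Its untreated ubp8 levels were below a count of 3, which corresponded to 0.195 and 0.185 CPM there, so the size of its change is uncertain.

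Treated WT places the comparison. A contrast of either mutant with WT would share its mutant libraries, so the position of the treated WT mean is given as a description, with no test. For 1174 of the 1824 genes higher in ubp16 (64.4%) the WT mean lay beyond ubp8, so that ubp8 was the mutant nearer WT, for 572 (31.4%) it lay between the mutants and for 78 (4.28%) beyond ubp16. For the 1736 lower genes the counts were 925 beyond ubp8 (53.3%), 691 between (39.8%) and 120 beyond ubp16 (6.91%). Pap1 targets had WT beyond ubp8 for 10 of 11 called members, ribosome biogenesis factors for 29 of 31 and chaperones for 7 of 7. Respiratory chain genes had WT between the mutants for 20 of 28 and beyond ubp16 for 7.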

How the data were processed

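The authors deposited 1 table of raw counts per gene for the 12 libraries; per the submitters' processing notes FastQC, Trimmomatic, STAR, HTSeq and DESeq2 were used, with no versions or roles stated, and the genome build is not named. Per the labels' protocols RNA was extracted with hot phenol and polyadenylated RNA was made into strand-specific TruSeq libraries.

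Samples were grouped by their strain and treatment labels. Genes passing filterByExpr (8166, holding 99.95% of counts) were fitted over all 12 libraries with 1 mean per group and 6 residual degrees of freedom, using edgeR 4.0.16 with TMM scaling and its quasi-likelihood test in R 4.3.3. Standard errors are the log2 value over the root of F. The fit was tested on simulated data. Alternatives were median-of-ratios and library-total scaling, DESeq2 1.42.0, limma 3.58.1 with voom, 2 filters, a replicate block, only the 4 libraries, coding genes alone and each library left out. Totals were 11912407 and 11252440 counts in the treated ubp16 libraries and 14054746 and 11184213 in the treated ubp8 libraries, and intervals and floors cover counting error only. The first 2 principal components took 46.0% and 24.4% of the variance.

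The comparison, the 33 gene lists and the motifs were chosen with earlier results of these data known. One gene whose symbol means another protein in fission yeast was taken off the glucose list after values were seen. Genes were named by a rule: the mutated genes and ctt1, up to 15 coding and 3 non-coding genes per direction with the largest change, a mean of at least 50 counts and no overlap, up to 6 per direction in the change with peroxide, up to 4 called and 2 uncalled members per list, and called members of the marker, SAGA and protease lists; the text gives a part of them. Of 12683 gene IDs 12603 matched RefSeq ASM294v3, from which promoters were read.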

Additional observations from a re-analysis of the deposited data

Results flagged for a closer look

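The difference between ubp16 and ubp8 changed with peroxide for 597 genes upward and 1120 genes downward, by the edgeR quasi-likelihood test of treated difference minus untreated difference, with the Benjamini-Hochberg adjusted p under 0.05. With 2 libraries per group no single library was tested as standing apart, although the untreated ubp16 libraries were visibly unequal in stress genes. The changes below are log2 values with their standard errors, and their causes were not tested.

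Upward changes included the uracil-regulated genes, at 4.55 ± 0.32 for urg1, 3.95 ± 0.27 for urg2 and 2.73 ± 0.18 for urg3. The phosphatase gene SPAC1039.02 changed by 4.30 ± 0.17, and was higher in ubp16 after peroxide and lower before it. Among Pap1 targets the changes were 3.91 ± 0.26 for osr1, 3.55 ± 0.32 for SPCC663.08c and 2.14 ± 0.24 for obr1. The thioredoxin genes trr1 and tpx1 changed by 2.15 ± 0.24 and 1.91 ± 0.21, and the alcohol dehydrogenase gene adh8 by 3.48 ± 0.22. The phosphate transporter gene pho842 changed by 3.04 ± 0.22 and also turned its order round.

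Downward changes were -4.31 ± 0.41 for ddr48, -4.28 ± 0.36 for the phosphoketolase family gene SPBC24C6.09c, -4.17 ± 0.40 for lsd90 and -4.26 ± 0.31 for the transporter gene SPCC794.04c. In all 4 ubp16 was higher before peroxide, and the values of the 2 untreated ubp16 libraries were unequal. A second set was lower in ubp16 after peroxide. It held ubp11, with -2.92 ± 0.21, adg1, with -2.60 ± 0.35, bio2, with -1.87 ± 0.20, pyp2, with -1.80 ± 0.29, met17, with -1.50 ± 0.32, though not called without ubp16 treated library 1, and ilv3, with -1.49 ± 0.15.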

How the results depend on the processing

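The treated comparison gave 1320 to 2053 genes higher and 1378 to 2196 lower over the settings that keep all its libraries, and 1482 to 1578 higher and 1125 to 1229 lower when 1 library was left out. Coding genes lower were 575 to 662 when 1 library was left out, against 902 with all. The untreated comparison gave 1160 genes higher with library totals and 1172 among genes with a mean of at least 50 counts, against 2241, and 898 to 1216 lower when 1 library was left out. The change of the strain difference gave 920 genes upward with no filter on low counts, against 597, and 318 to 631 upward and 380 to 1336 downward when 1 library was left out. The libraries behind the low ends are named in the report, and the cause was not tested. DESeq2 called 1823 genes higher and 1378 lower after peroxide, and limma-voom 1821 and 1677. Of 106 genes named and called after peroxide 103 kept the call and the direction under all 13 alternatives; rhp6, sus1 and lsd90 lost the call under at least 1. Of the 20 named and called without peroxide 15 kept it, the others being ubp16, adh8, gpd1, tpx1 and ilv3, and in the change with peroxide 20 of 21 named genes kept it, met17 being the exception.

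With the replicate number as a replicate block the treated calls were 1922 higher and 1839 lower. The labels do not say whether libraries of the same number belong together. The deviations of the treated ubp16 and ubp8 libraries had a correlation of 0.071, and the 15 pairs of groups ranged from -0.089 to 0.191. Between untreated and treated libraries of the same strain the correlation was 0.112 for WT, 0.18 for ubp8 and 0.144 for ubp16. Some pairs of different strains were negative. Whether equal numbers mark a shared batch was not tested. Group sizes of 2 and counts near the floor limit what low genes can show.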

Other observations

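Coding genes within 100 kb of a chromosome end were looked at after their values had been seen, and the counts below are descriptions without a test, to be read beside all coding genes, of which 31.3% were higher and 18.2% lower after peroxide and 43.3% higher and 5.79% lower without it. At the left end of chromosome I 11 of 16 genes tested were higher in ubp16 after peroxide and 2 lower (median log2 difference 1.53), against 5 and 3 without it (median 0.30). At the right end of chromosome I 12 of 21 were higher and 4 lower (median 0.61), against 5 and 3 (median 0.03). Chromosome II leaned the other way: at its left end 9 of 16 were lower and 4 higher after peroxide (median -1.39), with 12 and 2 without it (median -1.41), and at its right end 8 of 14 were lower and 2 higher (median -1.23), with 7 and 2 (median -1.03). At the ends of chromosome III 7 of 29 genes were higher and 10 lower after peroxide (median -0.09), with 8 and 8 without it, and 6 of 35 were higher and 8 lower (median 0.03), with 9 and 4 without it. Genes near chromosome ends have close copies, so that single members are uncertain. Some had few counts outside 1 strain and could pass the filter through that strain alone, which fixes their direction. SPBPB8B6.02c, left on chromosome II, had 0.0 and 0.0 CPM in treated ubp16, against 3.45 and 3.38 CPM in ubp8. SPAPJ695.01c, left on chromosome I, had 1.38 and 2.30 CPM in ubp16, against 0.073 and 0.732 CPM in ubp8. The counts and medians above include such genes.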
